A study of Mus musculus with 10 samples.

Results

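The 10 genes described here encode the transcription factors and coactivators that build and maintain brown fat. They are *Pparg*, *Ppara*, *Cebpa*, *Cebpb*, *Cebpd*, *Prdm16*, *Ebf2*, *Ppargc1a*, *Ppargc1b* and *Ehmt1*. They were chosen by name from the 27267 rows of the table of normalized counts, and all 10 were found. All 10 were also among the 13714 genes that were tested, those averaging 10 or more normalized counts. None passed through 1 group alone, since the lowest group mean among them was 92.4 (*Cebpd* in wild type). RNA came from interscapular brown adipose tissue (iBAT) of C57BL/6 mice of 4 weeks on a standard chow diet, labelled male, with 5 wild-type (WT) mice and 5 mice labelled as a global knock-out of *Mgp* (*Mgp*-KO), although 2 of these 5 libraries held 309 and 282 *Mgp* reads, against 0 or 1 in the other 3. A global knock-out lacks the gene in all cells, and such mice also develop vascular disease, so that a difference in iBAT is not tied to loss of *Mgp* from a fat cell. *Mgp* encodes matrix Gla protein, a secreted inhibitor of bone morphogenetic proteins. The question was whether the regulators of brown adipogenesis differ in transcript level between the genotypes.

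Adipogenesis runs through a cascade of transcription factors. C/EBPβ and C/EBPδ are induced first and activate PPARγ and C/EBPα, which then maintain each other and switch on the genes of lipid storage. In brown fat EBF2 and PRDM16, the latter together with the histone methyltransferase EHMT1, give the cells their brown identity. The coactivators PGC-1α and PGC-1β, encoded by *Ppargc1a* and *Ppargc1b*, act with PPARα, PPARγ and other nuclear receptors on the genes of mitochondria, fatty acid oxidation and heat production. Cold and β-adrenergic signals reach these genes through cyclic AMP, which raises *Ppargc1a* in brown adipocytes.

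The sequence before the start site is shown for 3 of the regulators. *Cebpb* is shown because it was the regulator with a called difference, and *Ppargc1a* because it is known to respond to cyclic AMP. *Pparg* is shown for the most downstream of its 3 listed start sites, inside the gene, because C/EBP proteins are known to act upstream of *Pparg*. Each line gives the 250 bases before the start, 5′ to 3′ on the strand of the gene, from RefSeq in the GRCm38.p6 build. In *Cebpb* (chr2:167688665-167688914, forward strand) and *Ppargc1a* (chr5:51567726-51567975, reverse strand) capitals mark the cyclic AMP response element half-site TGACG on either strand, and in *Pparg* (chr6:115421816-115422065, forward strand) they mark CCAAT and the C/EBP-type pattern TTGCNNAA on either strand.
*Cebpb*: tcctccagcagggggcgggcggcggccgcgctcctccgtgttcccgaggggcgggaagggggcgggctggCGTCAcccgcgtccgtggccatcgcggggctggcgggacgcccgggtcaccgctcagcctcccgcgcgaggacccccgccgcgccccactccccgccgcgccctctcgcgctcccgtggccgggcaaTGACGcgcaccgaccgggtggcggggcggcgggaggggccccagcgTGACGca
*Ppargc1a*: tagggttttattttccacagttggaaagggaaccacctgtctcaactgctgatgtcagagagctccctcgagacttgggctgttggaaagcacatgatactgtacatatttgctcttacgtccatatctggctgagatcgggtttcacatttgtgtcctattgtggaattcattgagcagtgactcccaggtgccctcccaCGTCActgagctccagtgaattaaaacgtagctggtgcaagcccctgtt
*Pparg*: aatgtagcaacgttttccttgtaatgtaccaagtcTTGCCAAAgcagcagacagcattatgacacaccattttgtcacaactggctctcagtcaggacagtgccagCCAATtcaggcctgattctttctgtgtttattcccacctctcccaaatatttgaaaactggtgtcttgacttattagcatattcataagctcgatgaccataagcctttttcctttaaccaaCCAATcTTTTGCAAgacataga
The *Cebpb* window held 3 matches to TGACG, which begin 180, 53 and 7 bases before the start, and the *Ppargc1a* window held 1, which begins 49 bases before it. The *Ppara* window, not shown, also held 1, which begins 222 bases before its start. Of all 32851 windows of this length in the table, 17.8% held at least 1 such match, and the share with 3 was not counted. The *Pparg* window held CCAAT at 144 and 22 bases before the start and TTGCNNAA at 215 and 16 bases before it. The matches to these patterns did not overlap each other. CCAAT was found in 33.8% of all windows and TTGCNNAA in 9.56%. Promoter windows were listed for 7 of the 10 regulators. A match describes letters only, and no binding was measured.

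The libraries form 2 sets that hold both genotypes. Replicates 1 to 3 had between 19616366 and 22252260 reads on genes, and replicates 4 and 5 between 9253793 and 13281873. Mitochondrial ribosomal RNA took between 0.771% and 1.72% of the reads in the first set and between 6.50% and 16.7% in the second. The labels name no batch. *Mgp* read 576, 489, 466, 1146 and 839 normalized counts in WT 1 to 5. Replicates 1 to 5 with the label *Mgp*-KO read 0, 0.765, 0.821, 500.2 and 331. The last 2 of these go against their label, and this group is referred to as the KO-labelled libraries for that reason. WT 2 had 5094 normalized counts of *Xist* and 3.74 in total for 4 genes of the Y chromosome, against its male label. KO-labelled library 4 stood apart from the other 9 in the summed markers of endothelial cells (63223 against 19839 to 33769), of red cells (101672 against 3011 to 26431) and of adipose progenitors (14796 against 5513 to 8891). A sum weighs abundant markers most, and *Dcn* had the highest mean of the progenitor markers (2893 in WT, 4768 in the KO-labelled libraries). Within replicates 4 and 5 the progenitor list had a median log2 fold change of -0.24, from -1.39 (*Dpp4*) to 1.66 (*Icam1*). Adipocyte markers were present in every library, with 8 of 8 tested and a summed level between 293912 and 617192. Values are therefore given over all libraries, within each set, and with a term for the set in the model. Bulk RNA cannot tell fewer cells of a type from less RNA in each cell.

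None of the 10 regulators was called over the 10 libraries in limma at an adjusted p under 0.05, where 9 of the 13714 genes were called (0.0656%). At an unadjusted p under 0.05 limma named 2 regulators, *Cebpb* and *Prdm16*, both lower, beside 10.4% of all tested genes. EdgeR called 3 genes (0.0219%) and DESeq2 374 (2.26%), with no regulator among them. *Mgp* itself was not called in these fits either (adjusted p = 0.236 in limma, 0.550 in edgeR and 0.630 in DESeq2). The log2 fold changes of the regulators had a median of 0.04, from -1.06 to 1.0, beside a median of 0.03 over all tested genes, and 5 were below 0 and 5 above. With a term for the set in limma, 324 genes were called (2.36%) and *Cebpb* was the regulator among them. *Mgp* was called in this fit (adjusted p = 0.0245). No regulator separated the 5 WT from the 5 KO-labelled libraries without overlap, as 3.50% of tested genes did.

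**Figure D1:**
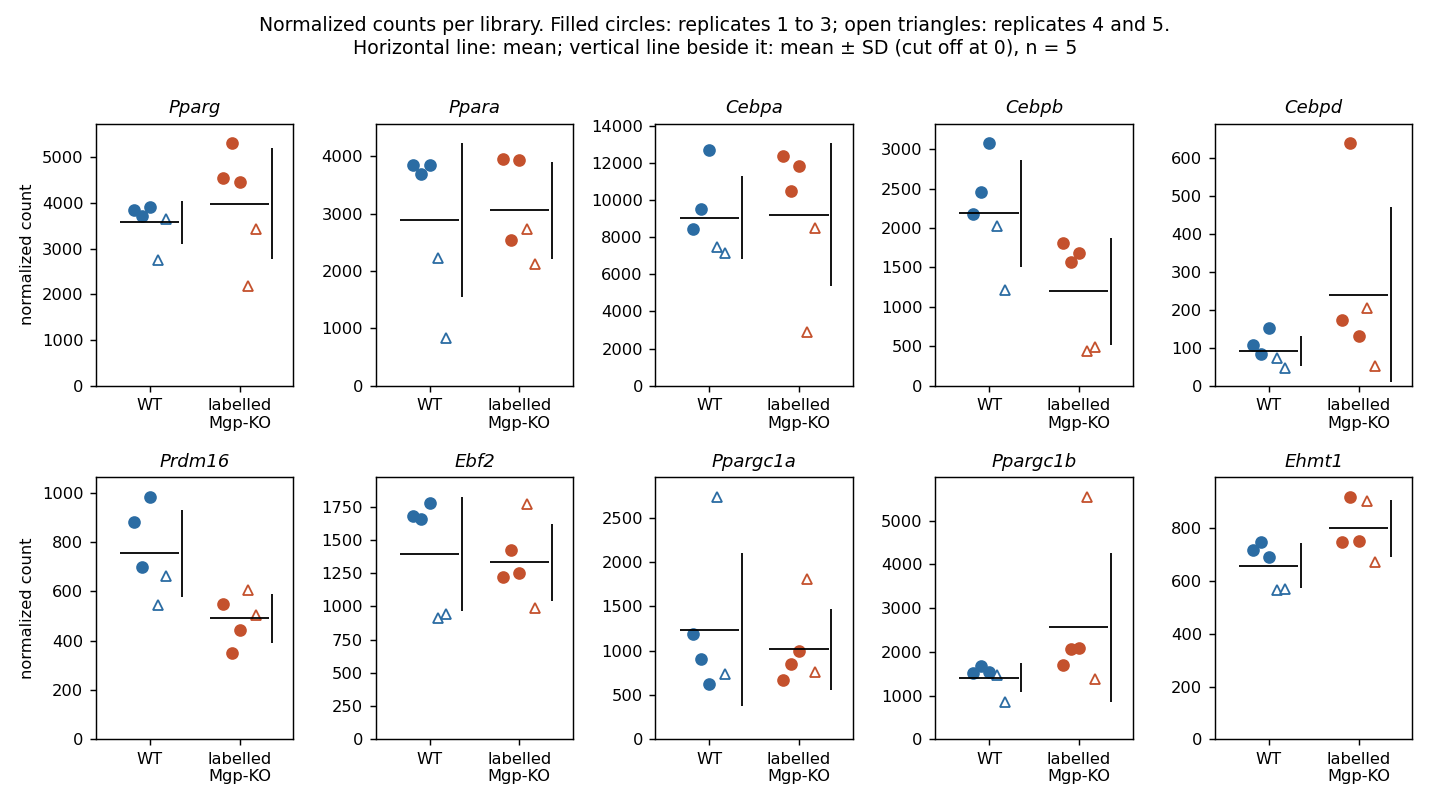
Normalized counts (vertical axis, linear, from 0) of the 10 regulators in each of the 10 libraries, by genotype as labelled. Filled circles are replicates 1 to 3, open triangles replicates 4 and 5, horizontal lines group means and the vertical lines beside them mean ± SD. *Cebpb* read lower in the KO-labelled libraries within each set, while the groups overlapped over all 10 libraries for every regulator.

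*Cebpb*, an early activator of the cascade that is also induced by cyclic AMP in brown fat, had the lowest log2 fold change of the regulators over all libraries and within replicates 4 and 5. Within replicates 1 to 3, and without KO-labelled libraries 4 and 5, *Prdm16* had the lowest (-0.94 and -0.74, against -0.59 and -0.31 for *Cebpb*). The position of *Cebpb* is chr2:167688915-167690418, on the forward strand (GRCm38). Its normalized counts were 2174, 2458, 3079, 2021 and 1209.6 in WT 1 to 5. They were 1814, 1571, 1683, 435 and 489 in KO-labelled libraries 1 to 5. The level was lower in the KO-labelled libraries within replicates 1 to 3 and within replicates 4 and 5 without overlap, a pattern that 6.31% of tested genes showed. Only the low value of WT 5 made the groups overlap over all 10 libraries. The group means were 2188 ± 680.4 in WT and 1199 ± 678 in the KO-labelled libraries (SD, n = 5 each).

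The log2 fold change of *Cebpb* was -1.06 (standard error 0.44, 95% confidence interval -2.02 to -0.10), or 0.480 of the WT level. The adjusted p was 0.423 in limma, and a two-sided exact permutation test of this gene alone gave p = 0.0873, where the smallest p that 252 arrangements allow is 0.00794. With the set term *Cebpb* fell by 1.06 on the log2 scale (standard error 0.23, interval -1.57 to -0.54), with an adjusted p of 0.0420 in limma. The call was not made in every fit. Without KO-labelled library 4 the value with the set term was -0.93 and the adjusted p 0.0462, where 4.94% of genes were called. Without WT 2 it was -1.14 and the adjusted p 0.0823, where 0.452% were called and no regulator. Without KO-labelled libraries 4 and 5, whose *Mgp* reads go against their label, and with no set term, the log2 fold change was -0.31 and the adjusted p 0.545 in limma. In that fit WT alone holds replicates 4 and 5, where *Cebpb* was lower in both genotypes, so that genotype and set are mixed in the value. DESeq2 with a set term gave an adjusted p of 0.00114, where 7.42% of genes were called. Over its 28 alternatives the adjusted p ranged from 0.00114 to 0.679, and the value stayed below 0 in each. The 0.679 came from replicates 4 and 5 alone, where no gene was called.

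Within replicates 1 to 3 the log2 fold change of *Cebpb* was -0.59 (standard error 0.15, adjusted p = 0.0778 in limma), and within replicates 4 and 5 it was -1.76 (standard error 0.36, adjusted p = 0.679). Limma called 486 genes in the first set (3.54%) and no gene in the second (0%), where 855 had an unadjusted p under 0.05. No regulator was called in either, with 5 and 1 of the 10 under an unadjusted 0.05, beside 22.0% and 6.23% of all tested genes. The interaction of genotype and set for *Cebpb* was -1.17 (standard error 0.34), with an unadjusted p of 0.00613 and an adjusted p of 0.455.

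*Cebpd*, the partner of *Cebpb* in the early wave, was the least abundant regulator in WT per kilobase of exon, with between 27 and 837 reads in a library. WT 1 to 5 had 107, 83.1, 152, 73.3 and 46.7 normalized counts, and the KO-labelled libraries had 173, 640.3, 131, 204 and 51.6. The high mean of the KO-labelled libraries (240.0 ± 231 against 92.4 ± 39.7 in WT, SD, n = 5 each) came with the value of 640.3 in replicate 2. On the log2 scale the difference was 1.0 (interval -0.20 to 2.21, adjusted p = 0.578 in limma). It was 0.53 without KO-labelled library 2 and 1.43 without KO-labelled library 5. Skeletal muscle markers, of which 10 of 10 were tested, summed to 32510 in KO-labelled library 2 and to 35839 in KO-labelled library 5, where *Cebpd* was 51.6. Their part in the *Cebpd* value was not tested.

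*Cebpa*, which maintains the fat cell together with *Pparg*, read 8428, 9488, 12667, 7442 and 7117 normalized counts in WT and 12373, 10471, 11832, 2867 and 8493 in the KO-labelled libraries. The groups overlapped, and the lowest library, KO-labelled library 4, was far below the rest of its group. It was also the library with the highest endothelial and red cell markers, whose part in the value was not tested. Its difference was -0.10 on the log2 scale (standard error 0.38, interval -0.93 to 0.72, adjusted p = 0.955 in limma), and without that library it turned to 0.27. Over the genes of the *Cebp* group the order of the differences was thus *Cebpb* lowest and *Cebpd* highest, with intervals of *Cebpa* and *Cebpd* that include 0.

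*Pparg*, the nuclear receptor that drives fat cell formation, read 3853, 3722, 3903, 2747 and 3653 normalized counts in WT. In the KO-labelled libraries it read 4548, 5313, 4465, 2174 and 3438. Within replicates 1 to 3 the KO-labelled libraries were all above WT, and within replicates 4 and 5 the groups overlapped. The log2 fold change was 0.10 over all libraries (interval -0.43 to 0.64, adjusted p = 0.922 in limma), 0.32 within replicates 1 to 3 (adjusted p = 0.170) and -0.21 within replicates 4 and 5 (adjusted p = 0.864). *Ppara*, the receptor for fatty acids that controls their oxidation, read 3856, 3694, 3851, 2221 and 836 in WT and 3954, 2538, 3944, 2728 and 2124 in the KO-labelled libraries. The groups overlapped in both sets, and WT 5 was the lowest library. Its log2 fold change was 0.23 (interval -0.65 to 1.12, adjusted p = 0.887) and turned to -0.16 within replicates 1 to 3 and without WT 5. The interval for *Pparg* holds any change between 0.740 and 1.56 of the WT level, and that for *Ppara* between 0.638 and 2.17.

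*Prdm16*, the zinc finger factor that specifies brown against muscle and white fat fate, was lower in replicates 1 to 3 of the KO-labelled libraries. Its position is chr4:154316125-154636873, on the reverse strand. WT 1 to 5 read 882, 700.1, 984, 547 and 661 normalized counts, and the KO-labelled libraries read 551, 349.6, 444, 607 and 504. All 3 KO-labelled libraries of the first set were below all 3 of WT, and those of the second set overlapped with WT. The log2 fold change was -0.61 over all libraries (standard error 0.21, interval -1.08 to -0.15, adjusted p = 0.320 in limma), or 0.654 of the WT level, and the exact permutation test of this gene alone gave p = 0.0238, two-sided. It was -0.94 within replicates 1 to 3 (standard error 0.20, adjusted p = 0.0507) and -0.12 within replicates 4 and 5 (standard error 0.31, adjusted p = 0.907). The difference between the sets was 0.82 (unadjusted p = 0.0329, adjusted p = 0.470), so that it was not shown that the sets differ. Its value stayed below 0 in all 28 alternatives, with an adjusted p between 0.0507 and 0.907.

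*Ehmt1*, the methyltransferase that works with PRDM16, varied least of the 10, with a highest library at 1.63 times the lowest. WT read 716, 749, 691, 564 and 569 normalized counts, and the KO-labelled libraries read 748, 918, 751, 902 and 673. The groups overlapped over all libraries, and in replicates 4 and 5 both KO-labelled libraries were above WT. The log2 fold change was 0.28 (standard error 0.16, interval -0.08 to 0.64, adjusted p = 0.599 in limma).

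*Ebf2*, which marks brown and beige precursors and recruits PPARγ to brown-selective genes, read 1680.4, 1661, 1778, 910.2 and 941 normalized counts in WT. The KO-labelled libraries read 1222, 1424, 1253, 1769 and 991. The order was opposite in the sets without overlap in either. The level was lower in all KO-labelled libraries of replicates 1 to 3 (log2 fold change -0.40, adjusted p = 0.0957 in limma) and higher in both of replicates 4 and 5 (0.52, adjusted p = 0.689). The highest KO-labelled value was that of library 4, which also had the highest sum of adipose progenitor markers, whose part in the value was not tested. Over all libraries the value was -0.03 (interval -0.58 to 0.51, adjusted p = 0.976). The interaction was 0.91 (standard error 0.32, unadjusted p = 0.0183, adjusted p = 0.455).

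The coactivators differed in direction, without a call. *Ppargc1a* read 1188, 910.5, 627, 2737 and 734 normalized counts in WT and 665, 852, 996, 1808 and 757 in the KO-labelled libraries. The groups overlapped, and replicate 4 was the highest library of each genotype. Its log2 fold change was -0.16 (interval -1.02 to 0.70, adjusted p = 0.923 in limma), and it turned to 0.18 without WT 4. *Ppargc1b* read 1517, 1678, 1542, 1475 and 848 in WT and 1712, 2065, 2091, 5546 and 1386 in the KO-labelled libraries. The KO-labelled libraries were above WT within replicates 1 to 3, and the groups overlapped in replicates 4 and 5. On the log2 scale it differed by 0.71 (standard error 0.35, interval -0.05 to 1.46, adjusted p = 0.517), or 0.38 without KO-labelled library 4, the highest. Mitochondrial ribosomal RNA took 16.7% of the reads of that library, and the part of this in the *Ppargc1b* value was not tested.

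**Figure D2:**
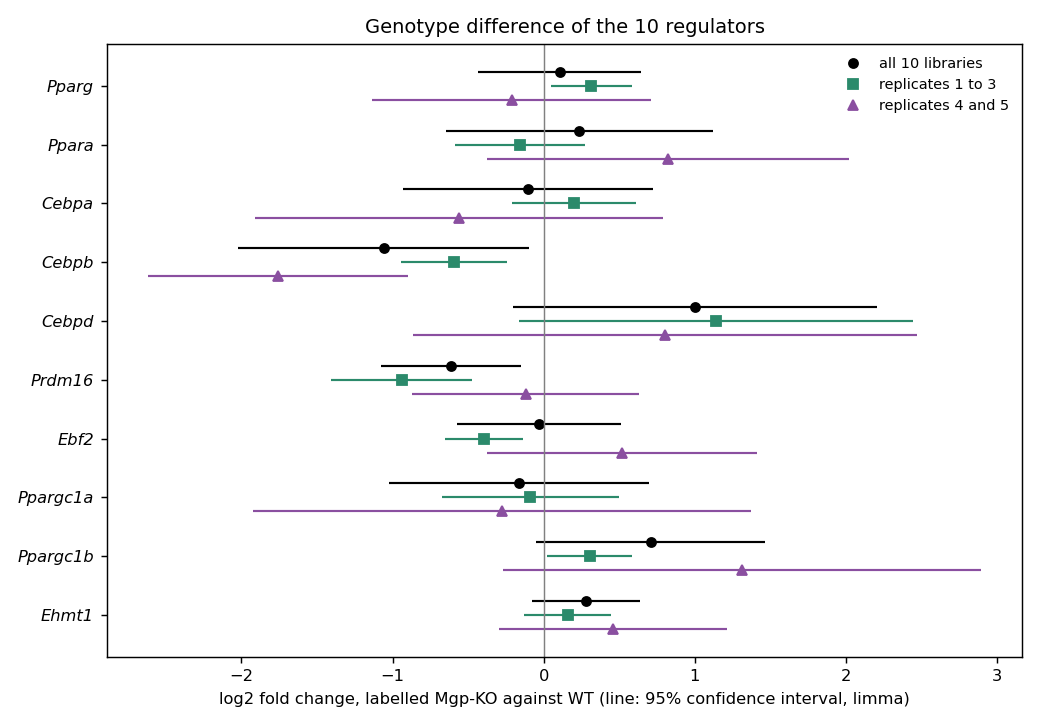
Log2 fold changes of the 10 regulators (horizontal axis, KO-labelled libraries against WT) over all 10 libraries (circles), within replicates 1 to 3 (squares) and within replicates 4 and 5 (triangles). Lines are 95% confidence intervals from limma. *Cebpb* lies below 0 in all 3 fits, and *Ebf2* lies on opposite sides of 0 in the sets.

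Within replicates 1 to 3 the groups did not overlap for 5 of the 10 regulators. *Pparg* and *Ppargc1b* were higher there and *Cebpb*, *Prdm16* and *Ebf2* lower. Of all tested genes 30.6% did not overlap in this set, with 3 libraries a group. The interaction of genotype and set called 1 gene (0.00729%), *Mgp* itself, and no regulator, and 3 regulators (*Cebpb*, *Prdm16* and *Ebf2*) had an unadjusted p under 0.05, beside 10.3% of all tested genes.

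Some regulators were called between the sets of libraries. With genotype in the model 4 of the 10 were called between the sets in limma, all lower in replicates 4 and 5, where 19.9% of tested genes were called lower. *Cebpb* fell from a mean of 2129.9 in replicates 1 to 3 of both genotypes to 1039 in replicates 4 and 5 (log2 difference -1.28, adjusted p = 0.00199). *Ppara* fell from 3639 to 1977 (-0.99, adjusted p = 0.0188), *Pparg* from 4301 to 3003 (-0.54, adjusted p = 0.0344) and *Cebpa* from 10876 to 6479.8 (-0.84, adjusted p = 0.0378). For *Cebpa*, KO-labelled library 4 read 2867 and the other libraries of replicates 4 and 5 read between 7117 and 8493. *Prdm16* (652 against 579.7), *Ehmt1* (762 against 677) and *Ppargc1b* (1768 against 2314) were not called. These sets differ in depth and in mitochondrial ribosomal RNA. They also differ without overlap in the summed markers of adipocytes (293912 to 380447 in replicates 1 to 3, 467955 to 617192 in replicates 4 and 5) and of nerve (500.3 to 1902 against 1926 to 3352). The adipocyte sum is weighted most by *Fabp4* (144961 ± 71764 in WT, SD, n = 5) and *Lpl* (109428 ± 93833), while *Adipoq* read 14506 ± 1575. It therefore need not reflect all 8 markers. The part of depth, mitochondrial ribosomal RNA and these markers in the differences was not tested.

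Levels were compared between the regulators per kilobase of exon, with the union of all annotated exons of a gene as its length. *Cebpa* was the most abundant in WT at 3425 ± 848 normalized counts per kilobase (SD, n = 5). *Cebpb* followed at 1455 ± 452 and *Pparg* at 1211 ± 160.5, and these 2 neighbours did not differ beyond their spread, with *Cebpb* above *Pparg* in 4 of 5 WT libraries. *Ppara* stood at 754 ± 349, *Ppargc1b* at 354 ± 81.3, *Ebf2* at 201 ± 62.1 and *Ppargc1a* at 188 ± 131. The WT ranges of neighbours among these 4 genes overlapped, although *Ppara* was above *Ppargc1b* and *Ppargc1b* above *Ebf2* in 5 of 5 WT libraries. *Ehmt1* and *Prdm16* had the same level within their spread, 81.1 ± 10.6 and 81.0 ± 18.9, and *Cebpd* was lowest at 24.7 ± 10.6. Neighbours in this order whose WT ranges were apart were *Cebpa* and *Cebpb*, *Ppargc1a* and *Ehmt1*, and *Prdm16* and *Cebpd*. In the KO-labelled libraries the mean of *Cebpb* stood at rank 4, with 797 ± 451 per kilobase, within the spread of *Ppara* at 797 ± 220. This mean joins unlike sets, with 1571 to 1814 normalized counts in KO-labelled libraries 1 to 3 and 435 and 489 in 4 and 5. In single libraries of both genotypes the rank of *Cebpb* lay between 2 and 5. *Pparg* stood at a mean of 1350 ± 411 in the KO-labelled libraries, above *Cebpb*. *Prdm16* had the lowest mean there at 52.7 ± 10.6, within the spread of *Cebpd* at 64.1 ± 61.7. This order holds for the means only, since *Cebpd* had 640.3 normalized counts in KO-labelled library 2 and 51.6 to 204 in the others of that group.

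Correlations between the regulators went both ways. After the mean of each set was subtracted from the log2 values, 21 of the 45 pairs had a correlation above 0 over the 10 libraries, and the median correlation was -0.02. *Ppargc1b* and *Ehmt1* had the highest (Pearson r = 0.86), which was 0.52 without KO-labelled library 4. *Pparg* and *Cebpa* had r = 0.70, and 0.26 without that library. *Prdm16* and *Ebf2* had r = 0.45, and 0.72 without it. *Cebpa* and *Ebf2* had the lowest, -0.84, and -0.36 without it. The genes of a pair share the same libraries and depth, so these values describe the 10 libraries and no more. The genes whose pattern was most like that of *Cebpb* by this measure were *Pgrmc1* (r = 0.97), *Ppp1r15b* (0.97) and *Suds3* (0.96). For *Prdm16* they were *Fndc1* (0.96), *Nagpa* (0.96) and *Ptgfrn* (0.96). For *Ebf2* they were *Cenpn* (0.99), *Lpin2* (0.97) and *B4galt6* (0.95), and for *Pparg* they were *Pstpip2*, *Mat2b* and *Eif2ak3* (0.98, 0.98 and 0.97). The highest for *Cebpa* was *C1qbp* (0.98), for *Ppara* *Gm44791* (0.97), for *Cebpd* *Whamm* (0.98), for *Ppargc1a* *Arl5b* (0.96), for *Ppargc1b* *Osbpl7* (0.99) and for *Ehmt1* *Ufl1* (0.99). These genes were picked as the highest among 13714 tested genes over 10 libraries, so high values arise in part from the choice. No values without KO-labelled library 4 are given for them.

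The partners of these regulators were mostly without a call. Over all tested genes 2.36% were called with the set term and 3.54% within replicates 1 to 3. Of 11 tested nuclear receptors that pair or compete with the PPARs, 1 was called with the set term, and of 20 coregulators none was called over all libraries, with the set term or within replicates 1 to 3. The coregulators, which include *Med1*, *Ncor1* and *Ehmt2*, had a median log2 fold change of 0.14, from -0.31 to 0.80. The receptor called was *Nr1h3*, the liver X receptor α, a sensor of oxysterols. It read 812, 780.2, 917, 1129 and 1082 normalized counts in WT and 699, 569, 610.1, 651 and 621 in the KO-labelled libraries, without overlap. It fell by 0.57 on the log2 scale with the set term (standard error 0.13, adjusted p = 0.0431 in limma), and the adjusted p was 0.0866 without WT 2. Over its 28 alternatives the adjusted p ranged from 0.00103 to 0.679. The latter came from replicates 4 and 5 alone, where no gene was called.

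Among 17 tested early adipogenic transcription factors *Ebf1*, a relative of *Ebf2* that acts before *Pparg*, was called with the set term. It read 1397, 1485, 1009, 2807 and 2192 normalized counts in WT and 2659, 2374, 2886, 9583 and 3403 in the KO-labelled libraries. The KO-labelled libraries were above WT without overlap in both sets. *Ebf1* rose by 1.11 on the log2 scale (standard error 0.25, adjusted p = 0.0434 with the set term, and 0.0249 within replicates 1 to 3, where it rose by 1.04). Its adjusted p with the set term was 0.0866 without WT 2. The value of 9583 was that of KO-labelled library 4, which stood apart in the sum of adipose progenitor markers. Without that library the log2 fold change with the set term was 0.86 (adjusted p = 0.0201). *Klf4*, a factor of the first hours of adipogenesis, fell within replicates 1 to 3 (log2 fold change -1.21, adjusted p = 0.0187) but read 4084 in KO-labelled library 4 and 702 in 5, against 3018 and 382 in WT. Among 15 tested factors of brown identity *Lhx8* rose within replicates 1 to 3, from 57.9, 54.7 and 40.4 normalized counts to 110.0, 179 and 155 (log2 fold change 1.51, adjusted p = 0.0240). With the set term its adjusted p was 0.0709, which was 0.00786 without KO-labelled library 4 and 0.154 without WT 2, and the groups overlapped in replicates 4 and 5. DESeq2 over all libraries called other genes of these lists, named after their values were seen, beside 2.26% of all genes. These were *Zfp521* among the early factors (log2 fold change 0.69, adjusted p = 0.0405) and *Irf4* (-2.01, adjusted p = 0.00637) and *Zbtb16* (1.95, adjusted p = 0.0427) among those of brown identity.

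Few target genes of the regulators were called, and none over all libraries without the set term in limma. Of 18 tested target genes of PPARγ and C/EBPα, 1 fell with the set term and 2 within replicates 1 to 3, beside 2.36% and 3.54% of all tested genes, and the median log2 fold change of the list was -0.19. *Agpat2*, an enzyme of triglyceride synthesis, read 9358, 11386, 12759.9, 11543 and 24532 normalized counts in WT and 2321, 517, 3088, 4327 and 4640.0 in the KO-labelled libraries. The groups did not overlap, and *Agpat2* fell by 2.47 on the log2 scale with the set term (standard error 0.44, adjusted p = 0.0183 in limma, 0.0589 without WT 2). *Gpd1*, which supplies glycerol phosphate, was called within replicates 1 to 3 and fell by 0.92 (adjusted p = 0.0438). DESeq2 called 3 members, all lower (2.26% of all genes), and limma with the set term without KO-labelled library 4 called 4, all lower (4.94%). The members these added were *Acsl1* in both and *Pck1* in the latter, named after their values were seen. Members called in none of these fits include *Fabp4* (log2 fold change -0.13), *Adipoq* (-0.36), *Plin1* (-1.29) and *Lpl* (0.44).

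Of 17 tested target genes of PPARα and PGC-1, *Ehhadh* was the one called with the set term (2.36% of all tested genes), and the list had a median of -0.30. *Ehhadh*, a peroxisomal enzyme of fatty acid oxidation, read 1926, 1964, 2378, 2521 and 1848 normalized counts in WT and 525, 754, 801, 887 and 273 in the KO-labelled libraries. All 5 of the latter were below all of WT. It fell by 1.82 on the log2 scale with the set term (standard error 0.28, adjusted p = 0.0141 in limma, 0.0426 without WT 2). Its adjusted p over all libraries without the term was 0.0504. *Cpt1b* (-0.49), *Acadm* (-0.52), *Tfam* (-0.35) and *Cs* (-0.30) were not called over all libraries, with the set term or within replicates 1 to 3.

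**Figure D3:**
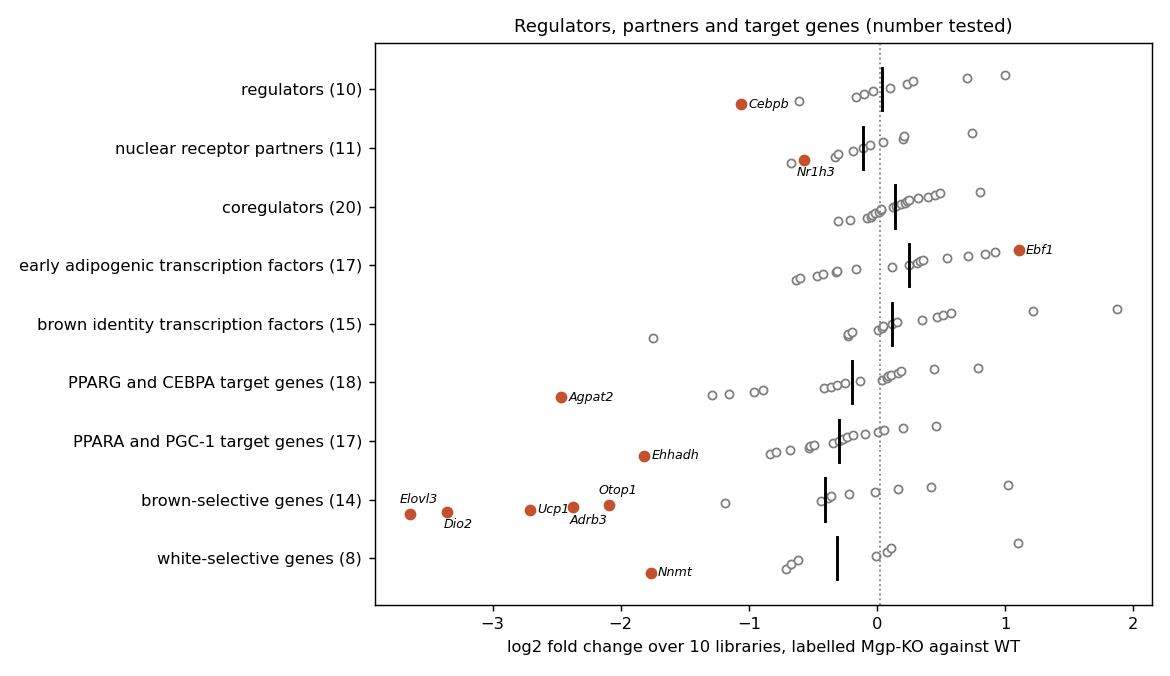
Log2 fold changes over the 10 libraries (horizontal axis) of the regulators and of 8 lists of partners, other factors and target genes, with the number tested in brackets. Each circle is a gene, filled and named where its adjusted p with the set term was under 0.05, the black bars are list medians and the dotted line is the median of all tested genes, 0.03.

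Brown-selective genes held the largest share of calls among these lists, 5 of 14 with the set term, all lower, beside 2.36% of all tested genes. Without KO-labelled library 4 the fit with the set term called 5 lower and 2 higher, *Pank1* and *Fabp3*, beside 4.94%, and *Fabp3* is named after its value was seen. Without WT 2 the count was 2, *Ucp1* and *Elovl3*, beside 0.452%. The list had a median log2 fold change of -0.41 over all libraries. *Ucp1*, the uncoupling protein of heat production, read 38421, 41322, 46191, 62428 and 116019 normalized counts in WT and 8939, 2201, 11904, 12319 and 15641 in the KO-labelled libraries. It fell by 2.70 on the log2 scale with the set term (standard error 0.40, adjusted p = 0.0127 in limma, 0.0418 without WT 2). Within replicates 1 to 3 *Ucp1* fell by 2.76. All KO-labelled libraries were below WT, and WT 5 was the highest.

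*Elovl3*, a fatty acid elongase of active brown fat, read 35.1, 90.6, 146, 1130.1 and 2037 normalized counts in WT and 5.28, 10.7, 10.7, 139 and 29.3 in the KO-labelled libraries. *Dio2*, which makes active thyroid hormone and is induced by cyclic AMP, read 698, 491, 376, 7122 and 7534 in WT and 64.8, 10.7, 157, 1739 and 293 in the KO-labelled libraries. Both were higher in replicates 4 and 5 of WT than in replicates 1 to 3, and within each set the groups did not overlap. With the set term *Elovl3* fell by 3.64 (adjusted p = 0.0104, 0.0371 without WT 2) and *Dio2* fell by 3.35 (adjusted p = 0.0228, 0.0657 without WT 2).

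The other members called are named after their values were seen. *Otop1*, a proton channel of brown fat, read 2886, 2709.7, 3029, 2331 and 4617 normalized counts in WT and 871, 389, 1187, 371 and 1206 in the KO-labelled libraries. *Adrb3*, the β3-adrenergic receptor, read 2533, 2591, 2799, 1200.4 and 2589 in WT and 290.2, 189.7, 334, 868 and 951 in the KO-labelled libraries. The groups were apart for both genes. With the set term *Otop1* fell by 2.09 (adjusted p = 0.0167) and *Adrb3* fell by 2.37 (adjusted p = 0.0163), and without WT 2 these were 0.0506 and 0.0555. For *Adrb3* the first set of libraries gave a log2 fold change of -3.32 and the second -0.96, with an interaction of 2.36 (standard error 0.45, unadjusted p = 0.000376, adjusted p = 0.455 in limma). *Pank1* rose within replicates 1 to 3 (log2 fold change 0.78, adjusted p = 0.0213) and was -0.11 within replicates 4 and 5. *Cidea* (-0.44), *Cox7a1* (-0.36) and *Cox8b* (-0.01), other genes typical of brown fat, were not called over all libraries, with the set term or within replicates 1 to 3.

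**Figure D4:**
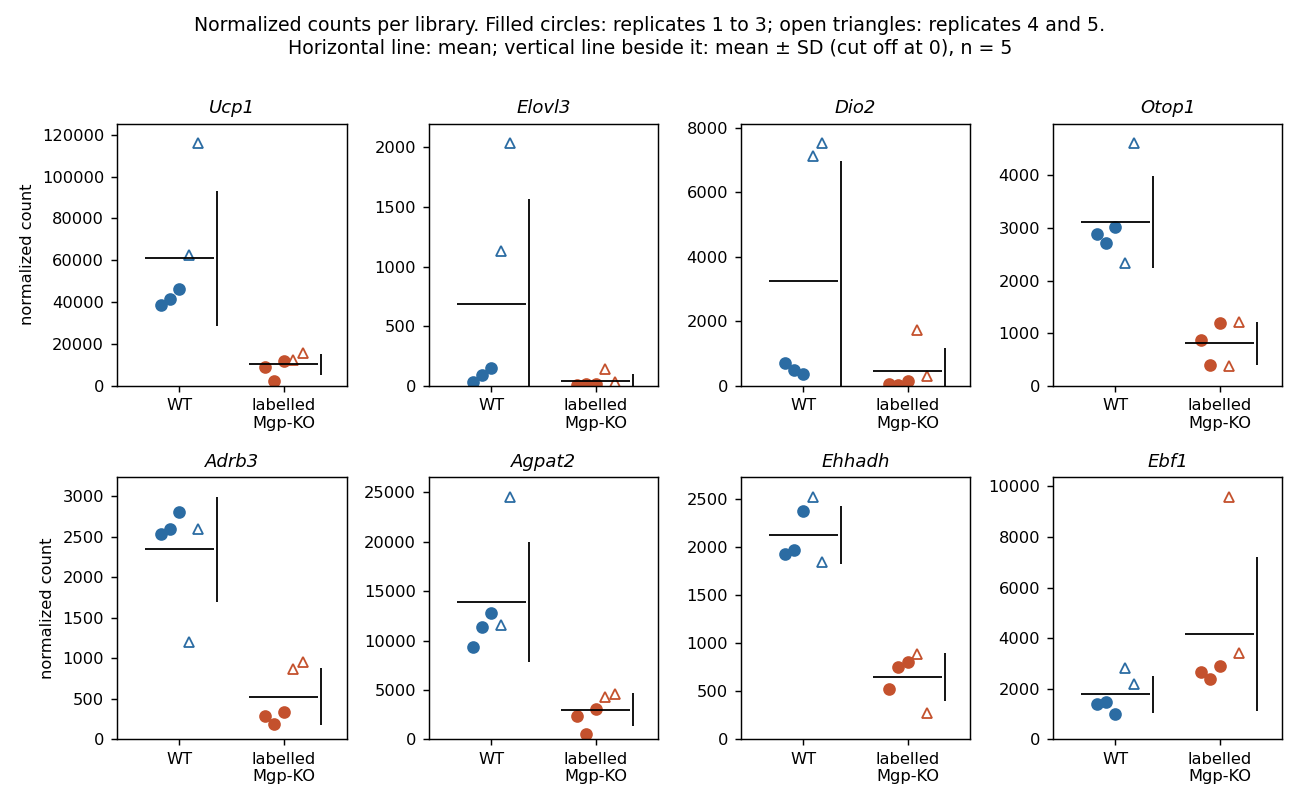
Normalized counts (vertical axis, linear, from 0) of 8 partners and target genes in each of the 10 libraries, by genotype as labelled. Filled circles are replicates 1 to 3, open triangles replicates 4 and 5, horizontal lines group means and the vertical lines mean ± SD, cut off at 0. *Ucp1*, *Otop1*, *Adrb3*, *Agpat2* and *Ehhadh* show no overlap between the groups, and *Elovl3* and *Dio2* none within a set.

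White-selective genes held 1 call with the set term and 1 within replicates 1 to 3, both lower, beside 2.36% and 3.54% of all tested genes. Of 8 tested, *Nnmt*, an enzyme of nicotinamide metabolism that is higher in white fat, was called with the set term and fell by 1.76 (adjusted p = 0.0439 in limma, 0.101 without WT 2). It read 142, 109, 126, 548 and 353 normalized counts in WT and 30.1, 16.8, 65.7, 77.7 and 294 in the KO-labelled libraries. *Dpt*, a matrix protein of stromal cells, was called within replicates 1 to 3 and fell by 1.14 (adjusted p = 0.0454). The adipocyte markers as a list had a median log2 fold change of -0.19 over all libraries and 0.09 within replicates 1 to 3, with none of 8 called in these fits or with the set term.

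The calls of the partners and target genes differed in how many fits made them. Several fits called no gene at all, among them those without WT 2, WT 3 or WT 5 and that within replicates 4 and 5. No gene could therefore be called in all of them. Over 28 alternatives the adjusted p was under 0.05 in 14 for *Ehhadh*, 11 for *Otop1*, 10 for *Ucp1* and for *Adrb3*, and 8 for *Agpat2* and for *Elovl3*. It was under 0.05 in 6 for *Ebf1*, 5 for *Dio2*, 4 for *Nr1h3*, *Lhx8* and *Gpd1*, 3 for *Nnmt* and *Pank1*, and 1 for *Klf4* and *Dpt*. The highest adjusted p of a gene over these alternatives lay between 0.679 (*Ehhadh*, *Ucp1* and others) and 0.989 (*Dpt*). Both values came from the fit within replicates 4 and 5, where no gene was called.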

How the data were processed

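RNA from iBAT of 5 WT mice and 5 mice labelled *Mgp*-KO was sequenced with single reads of 50 bases. Per the methods and the submitters' processing notes, the authors mapped the reads to mm10 with STAR, counted them on genes, and divided each library by its DESeq2 size factor. The deposited values are this signal, a normalized count per gene. The annotation release and strand setting are not given in the sources used here, so overlapping or antisense genes may share reads. Divided by the value of 1 read in the library, 100% of the values came out whole (within 0.01 reads), and these reads, between 9253793 and 22252260 per library, were used for edgeR 4.0.16 and DESeq2 1.42.0.

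The main test was limma 3.58.1 in R 4.3.3 (lmFit, eBayes with trend) on log2(normalized count + 1) for 13714 genes with a mean of at least 10, two-sided, with Benjamini-Hochberg adjustment over all of them and a threshold of 0.05. Fold changes on this scale understate the change of low genes. The floor of 3 reads covers counting error only. Positions and exon lengths came from GENCODE (GRCm38), promoters from RefSeq.

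The regulators, gene lists and sets were chosen with earlier results of these data known. Genes named are the 10 regulators, *Mgp*, *Ucp1*, per list up to 3 in each direction of those called over all libraries, with the set term or within replicates 1 to 3, and the 3 genes most correlated with each regulator. Leaving out a library within the set-term fit was added after seeing the data. Alternatives comprised pseudocounts, filters, scalings, the replicate block, edgeR, DESeq2, a set term, each set alone and each library left out.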

Additional observations from a re-analysis of the deposited data

Results flagged for a closer look

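Some values lay far from the other libraries of their group by a rule on gaps (Dixon's test for 5 values), which chance alone would meet in about 5% of groups and which 8 of 52 groups of the named genes met. Among the regulators these were *Pparg* in WT 4 (2747 normalized counts, the next 3653), *Cebpa* in KO-labelled library 4 (2867, the next 8493) and *Ppargc1b* in WT 5 (848, the next 1475). Among the other genes they were *Ebf1* (9583), *Klf4* (4084) and *Gpd1* (27802) in KO-labelled library 4, *Ucp1* in KO-labelled library 2 (2201) and *Adrb3* in WT 4 (1200.4). *Mgp* was the gene whose genotype difference itself differed between the sets of libraries, with an interaction of 7.16 on the log2 scale (adjusted p = 0.000251 in limma).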

How the results depend on the processing

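Over 28 alternatives 5 of the 10 regulators (*Cebpb*, *Cebpd*, *Prdm16*, *Ppargc1b* and *Ehmt1*) kept the direction of their difference. A regulator was called in 3 of them, and it was *Cebpb*: with the set term (1 of 10), with DESeq2 and a set term (1 of 10), and with the set term without KO-labelled library 4 (1 of 10). The number of called genes, 9 in the main test, was 29 with a pseudocount of 10, 1 without a filter, 15 with a minimum mean of 50, 34 after quantile normalization, 3 in edgeR, 374 in DESeq2, 1152 in DESeq2 with a set term, 324 with the set term, 486 and 0 within replicates 1 to 3 and 4 and 5, and 267 without KO-labelled libraries 4 and 5. With the set term it was 678 without KO-labelled library 4 and 62 without WT 2. The number was between 0 and 93 when 1 library was left out in turn. The cause of these shifts was not tested.

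The replicate number as a block gave 270 called genes in limma and 222 in edgeR, with no regulator. Of the named genes that limma called with the set term, *Cebpb* (adjusted p = 0.0748 in limma, 0.0910 in edgeR), *Nr1h3* (0.0857 and 0.0810) and *Mgp* (0.0531 and 0.119) were not called with the block, nor was *Nnmt* in edgeR (0.0639). Deviations of same-numbered libraries correlated with r = 0.53, 0.056, 0.33, 0.52 and 0.51 for numbers 1 to 5, and 5 of 10 libraries correlated best with their own number, so the numbers were not taken as a pairing. The methods speak of 5 pairs of mice, and no label says that a number marks a pair. The mean r of the deviations was 0.39 for same-numbered libraries and 0.42 for other numbers of the same set. After the means of each set and genotype were subtracted, r was 0.042, -0.20 and -0.40 for numbers 1 to 3. It was 0.22 for both numbers 4 and 5, whose deviations mirror each other.

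*Cebpa* turned to 0.022 in edgeR, 0.028 in DESeq2, 0.20 within replicates 1 to 3, 0.39 without KO-labelled libraries 4 and 5 and 0.21 with the set term without KO-labelled library 4. *Ppara* turned to -0.16 within replicates 1 to 3. Within replicates 4 and 5 *Pparg* turned to -0.21, *Ebf2* to 0.52, *Klf4* to 0.66, *Pank1* to -0.11 and *Dpt* to 0.026, and *Ebf2* to 0.0082 with the set term without WT 2. With single libraries left out the log2 fold changes ranged from -0.015 to 0.31 for *Pparg*, from -0.16 to 0.39 for *Ppara*, from -0.25 to 0.27 for *Cebpa*, from -0.17 to 0.072 for *Ebf2*, from 0.53 to 1.43 for *Cebpd* and from -0.40 to 0.18 for *Ppargc1a*. Among the regulators depth limits *Cebpd* most, with 27 reads in WT 5, and *Elovl3*, *Lhx8*, *Dio2* and *Nnmt* had fewer, 7, 14, 14 and 22 reads in their lowest libraries.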
